A study of Rattus norvegicus with 2 samples.

Results

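The genes described here are those of the cholinergic switch and of the gp130 cytokine pathway in rat sympathetic neurons: Chat, Slc18a3, Slc5a7, Ache, Cntf, Il6st, Stat3 and Socs3. They were chosen by name, and each was read through every probe set that the platform annotation assigns to exactly 1 of these symbols. That gave 10 of 15866 probe sets, for 7 of the 8 genes. Ache, the enzyme that breaks down acetylcholine, had no such probe set and was not analysed here. RNA came from neurons grown together with myocytes and then lifted from the dish with EDTA (1 array), and from neurons grown alone (1 array). Both samples were hybridised to the Affymetrix Rat Expression Set 230A. Nothing in the sources used here gives the strain, the age of the animals, the time in culture or any added factor, and the isolation protocol allows for flat cells other than myocytes in the dish. The description field of the co-culture sample names neurons grown alone, against its title and source name, which were followed. With 1 array per condition there is no replicate and no test, so each value compares these 2 arrays and not the conditions.

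Most sympathetic neurons use noradrenaline, but some change their transmitter to acetylcholine under the influence of their target, the best known case being the innervation of sweat glands. Cytokines that act through gp130, such as leukaemia inhibitory factor and ciliary neurotrophic factor, can drive this switch in culture. They bind receptors that contain the shared subunit gp130, encoded by Il6st, which activates Jak kinases and the transcription factor Stat3. Stat3 in turn induces Socs3, which feeds back to inhibit the receptor. A cholinergic neuron needs Chat, which makes acetylcholine, Slc18a3, which loads it into vesicles, and Slc5a7, which takes up choline. Chat and Slc18a3 form 1 locus, with the Slc18a3 gene lying inside the span of Chat.

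Slc18a3 had a higher signal in neurons from co-culture, at the dim end of the scale, where its ratio depended on the floor and was 0 with a floor at the 40th percentile. Il6st was higher on all 3 of its probe sets. Stat3 was lower on both of its probe sets, as were 42.8% of the genes with exactly 2 probe sets above the filter. Genes listed as downstream of gp130 and Stat3 were mostly higher in neurons from co-culture. Of the 10 probe sets 7 passed a filter on low signal, and none of these 7 reached 2-fold. The background was 96 of 8308 probe sets that passed, or 1.16%. The filter asked for an intensity no lower than the median of the array, on at least 1 of the 2 arrays. All 12 measured sympathetic neuron markers passed it on both arrays, among them Th, the first enzyme of noradrenaline synthesis, at 4575 in neurons from co-culture and 6175 in neurons alone. The medians were 175.0 in neurons from co-culture and 185.7 in neurons alone. Before log2 was taken, low intensities were raised to a floor of 39.6, the 20th percentile of both arrays together.

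The sequences upstream of Chat and Slc18a3 are shown because these neighbouring genes were the members whose signal in neurons alone lay under the floor. Their RefSeq starts are 602 bases apart on the minus strand of chromosome 16 (GRCr8). Each line gives the 250 bases before the start, 5′ to 3′, at chr16:7723417-7723666 for Chat and chr16:7722815-7723064 for Slc18a3. Capitals mark GGGCGG or its complement CCGCCC, the core of the GC box.
Chat: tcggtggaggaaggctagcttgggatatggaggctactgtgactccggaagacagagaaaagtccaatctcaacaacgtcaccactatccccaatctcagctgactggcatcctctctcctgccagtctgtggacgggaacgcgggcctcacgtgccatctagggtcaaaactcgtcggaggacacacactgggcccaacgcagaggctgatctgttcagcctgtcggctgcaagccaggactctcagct
Slc18a3: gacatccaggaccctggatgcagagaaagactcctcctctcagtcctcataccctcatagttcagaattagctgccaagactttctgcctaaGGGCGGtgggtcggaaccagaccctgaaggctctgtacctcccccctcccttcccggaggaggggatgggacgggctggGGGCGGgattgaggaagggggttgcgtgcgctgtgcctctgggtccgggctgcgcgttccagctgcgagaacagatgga
The Slc18a3 window held 2 such matches, which began 158 and 79 bases before the start, and the Chat window held none. Of the windows of all 8 named genes, not printed for the others, 3 held a match, with 4 matches for Ache and 1 for Slc5a7. The same letters were found in 30.5% of 33469 RefSeq windows of this length. The letters TTCNNNGAA, a palindrome that Stat proteins can bind, were in none of the 8 windows of the named genes and in 7.67% of all windows. The absence says only that these letters are not in these 250 bases.

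**Figure D1:**
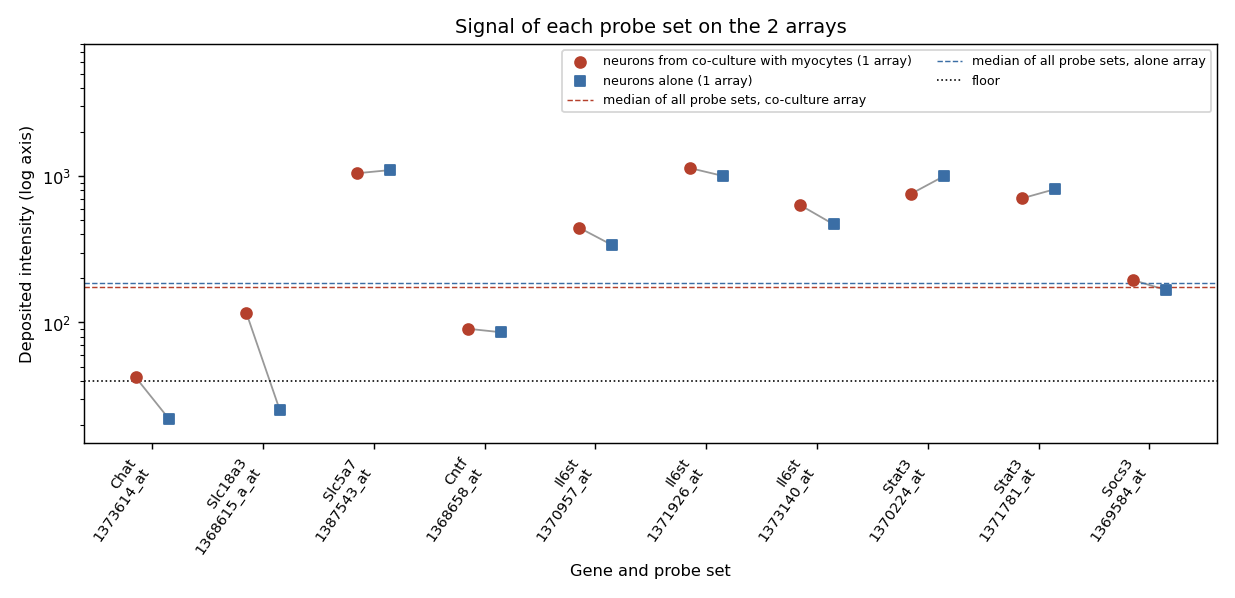
Deposited intensity (log axis) of each of the 10 probe sets in neurons from co-culture (circles) and in neurons alone (squares), 1 array each. Slc18a3 stood at 116 in neurons from co-culture and 25.4 in neurons alone, while the other genes lay closer together on the 2 arrays, and the dashed and dotted lines give the array medians and the floor.

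Slc18a3, the vesicular acetylcholine transporter, was read by 1 probe set, 1368615_a_at. Its intensity was 116 in neurons from co-culture and 25.4 in neurons alone, 4.57-fold higher as deposited. With the floor in place the difference was 2.93-fold, a log2 ratio of 1.55. Both values were under the array medians, and the value in neurons alone was under the floor. Slc18a3 was the 1 gene of 7 past 2-fold, against 0.714% of the 7558 probe sets below the filter that were at least 2-fold higher (54 probe sets). Without the floor, 5.81% of these dim probe sets were at least 2-fold higher and 11.2% at least 2-fold lower, so unfloored ratios at this signal are loose. An increase as large as that of Slc18a3 without the floor was seen in 1.14% of them. Of 3019 probe sets under the floor in neurons alone, 6 reached its co-culture value or more (0.199%). In the other direction, 17 of 3328 probe sets under the floor in neurons from co-culture had at least that value in neurons alone (0.511%). With the floor at the 40th percentile both Slc18a3 values fall under it and the log2 ratio is 0. The suffix of the probe set marks it as matching several transcripts, and there was no other probe set of the gene to set beside it.

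Chat, choline acetyltransferase, was dimmer still. Its probe set 1373614_at had 42.3 in neurons from co-culture and 22.0 in neurons alone, 1.92-fold higher as deposited. The co-culture value was barely above the floor and the other was under it, so that the log2 ratio was 0.09 with the floor and 0.94 without it. Among the dim probe sets, 6.30% were higher by at least this much without the floor. Chat and Slc18a3 thus had the same direction, at signals where the arrays give little hold on size.

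Slc5a7, the high-affinity choline transporter, was well above the filter on both arrays. Its probe set 1387543_at had 1047 in neurons from co-culture and 1101 in neurons alone, 1.05-fold apart. The log2 ratio was -0.07, and it turned to 0.01 under median scaling. The log2 ratio of a single probe set had an SD of 0.22 at this signal, estimated from genes with more than 1 probe set, and the Slc5a7 difference was 0.33 times that SD. For comparison, all 12 measured sympathetic neuron markers were lower, where 47.0% of all genes above the filter on both arrays were higher. On their brightest probe sets the log2 ratios of the markers ran from -0.58 to -0.06, with a median of -0.24. Slc5a7 lay within that range, near its upper end. Other marker probe sets above the filter, named after their values were seen, went beyond that range, with Hand2 at -1.39 and Slc18a2 at -0.02. Under quantile normalization, median scaling and lowess, 11 of the 12 markers were lower. Npy, a peptide stored with noradrenaline, had 5507 in neurons from co-culture and 6799 in neurons alone (-0.30), and Prph, a neuronal intermediate filament, had 4598 in neurons from co-culture and 5008 in neurons alone (-0.12). The RNA came from cells lifted off the dish, and fewer cells of a type among them and less RNA per cell cannot be told apart.

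**Figure D2:**
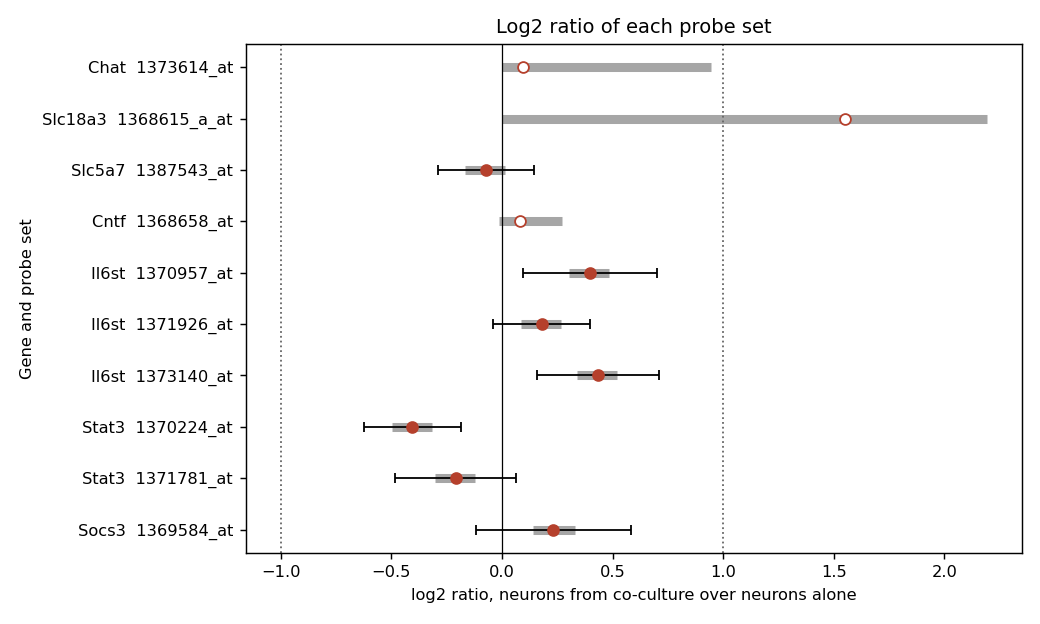
Log2 ratio (co-culture over alone) for each probe set (points, filled where above the signal filter, open where below). Thin bars are 1 SD of 1 probe set's ratio at that signal, thick grey bars the range over the alternative scalings and floors, and dotted lines mark 2-fold. The Il6st points lie right of 0 and the Stat3 points left of it under every scaling and floor shown, and Slc18a3 runs from 0 to 2.19.

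Cntf, the gene of ciliary neurotrophic factor, a gp130 ligand made by Schwann cells, did not stand apart on the 2 arrays. Its probe set 1368658_at had 90.6 in neurons from co-culture and 85.7 in neurons alone, both under the array medians. The log2 ratio was 0.08, and it turned to -0.01 under scaling to the spiked controls. Of the 7558 dim probe sets, 30.6% were higher by at least as much without the floor. Markers of Schwann and satellite glia were 7 higher and 4 lower among 11 above the filter, where 47.3% of all genes above it were higher. Of the 11, 3 passed through the co-culture array alone. Of the 8 above the filter on both arrays 4 were higher, where the share of all such genes was 47.0%. The summed intensity over the 13 glia genes on the array was 14735 in neurons from co-culture and 14802 in neurons alone. The 3 brightest were lower in neurons from co-culture. Gap43, a growth protein that neurons also make, had 5028 in neurons from co-culture and 5492 in neurons alone (-0.13). Pmp22, a myelin protein, had 2916 in neurons from co-culture and 3141 in neurons alone (-0.11). Ngfr, a neurotrophin receptor that neurons also carry, had 2275 in neurons from co-culture and 2453 in neurons alone (-0.11). S100b, a calcium-binding protein of glia with the largest increase in this list, named after its value was seen, had 524 in neurons from co-culture and 263 in neurons alone (0.99). The part of glia in these values was not tested.

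The other ligands of gp130 on the array were as dim as Cntf. Of 9 listed, 4 had a probe set of their own. All 4 were below the filter, and all 4 are named here after their values were seen. Lif, the leukaemia inhibitory factor, had 76.4 in neurons from co-culture and 97.8 in neurons alone, a log2 ratio of -0.36. Ctf1, cardiotrophin 1, a ligand made by heart muscle cells, had 77.4 in neurons from co-culture and 131 in neurons alone (-0.75). Il6 went the other way, with 74.1 in neurons from co-culture and 51.2 in neurons alone (0.53). Il11 was under the floor on both arrays. Each of these ligand probe sets was therefore under the median of both arrays.

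Il6st, which encodes gp130 itself, was higher on each of its 3 probe sets. Probe set 1371926_at, the brightest, had 1137 in neurons from co-culture and 1004 in neurons alone, a log2 ratio of 0.18. Probe set 1373140_at had 633 in neurons from co-culture and 469 in neurons alone (0.43). Probe set 1370957_at had 446 in neurons from co-culture and 338 in neurons alone (0.40). These are differences of 1.13-fold, 1.35-fold and 1.32-fold, which were 0.82, 1.58 and 1.31 times the SD of 1 probe set at their signal. Of the 72 genes with exactly 3 probe sets above the filter, 12.5% were higher on all 3. The brightest probe set gave the smallest ratio, 0.09 under scaling to the spiked controls, and the direction held for all 3 under each scaling and floor tried.

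The co-receptors that pair with gp130 were mostly dim. Of 6 listed, 4 were on the array, and of these only Il11ra1, the receptor chain for interleukin 11, was above the filter, with 243 in neurons from co-culture and 221 in neurons alone (log2 ratio 0.14). The other 3 are named after their values were seen. Lifr, the receptor chain for leukaemia inhibitory factor, had 59.7 in neurons from co-culture and 94.3 in neurons alone, a log2 ratio of -0.66. Cntfr, the chain that binds ciliary neurotrophic factor, had 172 in neurons from co-culture and 170 in neurons alone on its brightest probe set (0.02). On the other it had 72.9 in neurons from co-culture and 170 in neurons alone, a log2 ratio of -1.22. Its 2 probe sets therefore disagreed. Il6r, the chain for interleukin 6, was under the floor on both arrays. The higher Il6st signal was thus not shared by Lifr or by the second Cntfr probe set.

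Stat3, the transcription factor that gp130 activates, was lower on both of its probe sets. Probe set 1370224_at had 758 in neurons from co-culture and 1003 in neurons alone, 1.32-fold lower (log2 ratio -0.41). Probe set 1371781_at had 705 in neurons from co-culture and 815 in neurons alone, 1.16-fold lower (-0.21). The first difference was 1.85 times and the second 0.77 times the SD of 1 probe set at its signal. Of the 663 genes with exactly 2 probe sets above the filter, 42.8% were lower on both, so that agreement in this direction was common. Both Stat3 ratios stayed negative under each scaling and floor tried. Il6st and Stat3, receptor and transducer of the same pathway, had opposite signs on these arrays.

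Other transducers stayed close to 1. Of 15 listed, 10 were on the array and 7 of these above the filter, 2 of them higher and 5 lower, with a median log2 ratio of -0.07 against -0.01 for all 6368 genes above the filter. None reached 2-fold, against 0.942% of all genes, and 47.3% of all genes were higher. Under median scaling 4 were higher and 3 lower, and under scaling to the spiked controls all 7 were lower. The 2 brightest were Ptpn11, a phosphatase that links gp130 to the MAP kinase pathway (1015 in neurons from co-culture, 1117 in neurons alone), and the adaptor Grb2 (929 in neurons from co-culture, 967 in neurons alone). Stat2 and Jak2 are named after their values were seen. Stat2, a transducer of interferon signals, had 383 in neurons from co-culture and 501 in neurons alone (-0.39), though its dim second probe set was at 1.05. Jak2, a kinase bound to cytokine receptors, had 222 in neurons from co-culture and 208 in neurons alone (0.09).

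Socs3, the feedback inhibitor that Stat3 induces, had 195 in neurons from co-culture and 166 in neurons alone on probe set 1369584_at. This is 1.17-fold higher, a log2 ratio of 0.23, or 0.66 times the SD of 1 probe set at this signal (0.35). It passed the filter through the co-culture array alone, since its value in neurons alone was under that array's median. Of all probe sets that passed the filter, 14.1% had a ratio at least this high. The sign was positive under each scaling and floor tried, with a range from 0.14 to 0.33.

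Among other inhibitors of the pathway, 8 of 12 on the array were above the filter, 5 higher and 3 lower. Their median log2 ratio was 0.09 and none was at 2-fold. Over all genes above the filter, 47.3% were higher and 0.942% reached 2-fold. The 2 brightest were Socs5, of the same family as Socs3 (1038 in neurons from co-culture and 899 in neurons alone, 0.21), and Pias2, of a family that binds Stat proteins (524 in neurons from co-culture and 449 in neurons alone, 0.22). Socs2, a family member best known for restraining growth hormone signals, is named after its value was seen. It had 55.3 in neurons from co-culture and 157 in neurons alone, a log2 ratio of -1.50, and was below the filter. At least 2-fold lower were 1.92% of the dim probe sets. Socs2 and Socs3 therefore went opposite ways.

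**Figure D3:**
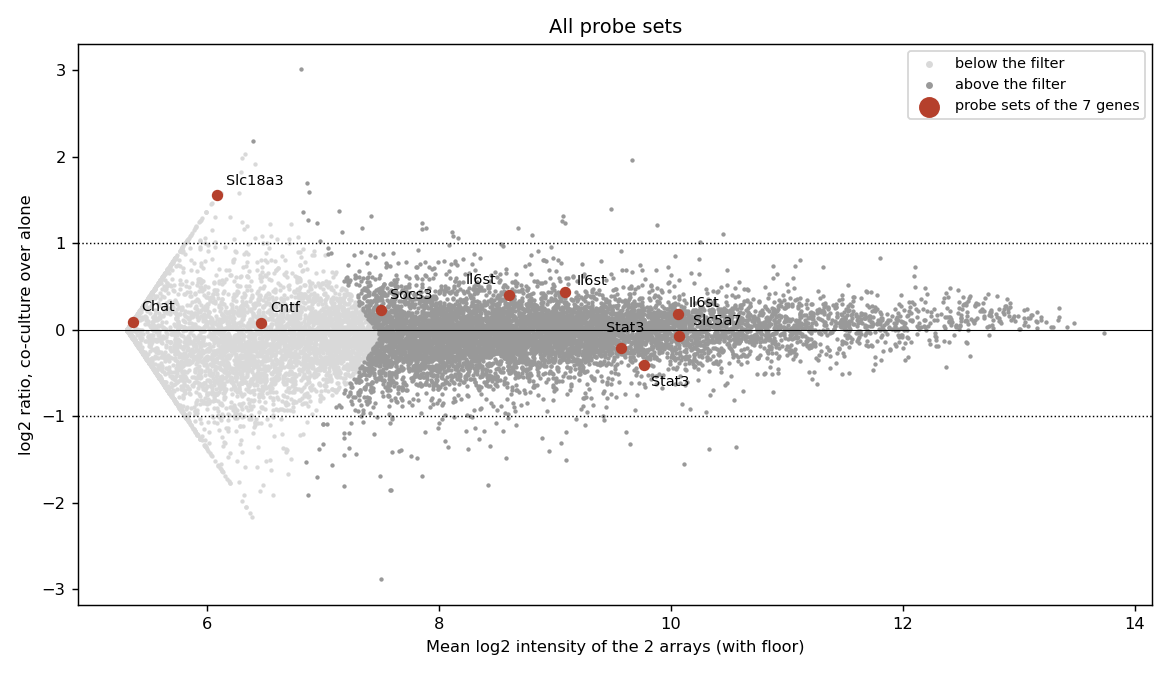
Log2 ratio (co-culture over alone) against the mean log2 intensity of both arrays for all 15866 probe sets (light grey below the filter, dark grey above), with the 10 probe sets of the 7 genes in red. Dotted lines mark 2-fold, and Slc18a3 at 1.55 lies at the dim end, on the edge set by the floor.

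Genes known to respond to gp130 and Stat3 in one cell type or another were higher as a list. Of 24 on the array, 17 were above the filter, 15 of them higher and 2 lower, where 47.3% of all 6368 genes above the filter were higher. Their log2 ratios ran from -0.17 to 0.91, with a median of 0.35 against -0.01 for all genes, and none was at 2-fold. The counts were 15 and 2 under each of the 5 scalings too, and the median ran from 0.26 to 0.44. With the mean over each gene's probe sets it was 0.21. Of the 17, 14 were above the filter on both arrays, and 12 of those were higher (median 0.35), where 47.0% of all genes above the filter on both arrays were higher. The other 3 passed through the co-culture array alone. Higher values of Cebpb and Atf3 were known when the list was written. Without them 13 of 15 were higher, with a median of 0.35.

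The brightest members were Ccl2, a chemokine that draws monocytes, and Timp1, an inhibitor of matrix proteases. Ccl2 had 4769 in neurons from co-culture and 2695 in neurons alone (log2 ratio 0.82), and Timp1 3217 in neurons from co-culture and 2521 in neurons alone (0.35). The members named next were picked after their values were seen. Cebpb, a transcription factor of the acute phase, had 634 in neurons from co-culture and 337 in neurons alone (0.91). Cebpd, of the same family, had 333 in neurons from co-culture and 235 in neurons alone (0.50) on its brightest probe set. Another Cebpd probe set, below the filter, was at 0.04, and the last was under the floor on both arrays. The adhesion molecule Icam1 had 583 in neurons from co-culture and 399 in neurons alone (0.55). Atf3, a factor induced by injury, had 276 in neurons from co-culture and 161 in neurons alone (0.78).

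Members with several probe sets were less even, and the genes of the list from here on were also picked after their values were seen. Fos, an immediate early gene, had 248 in neurons from co-culture and 135 in neurons alone (0.88), and 1.45 on its dim second probe set. Ccnd1, a cyclin of early cell cycle, was higher on all 3 probe sets, with log2 ratios of 0.30, 0.29 and 0.05. Mcl1, a survival protein, had log2 ratios of 0.42 on the brighter and -0.02 on the dimmer of its 2 probe sets. Bcl2l1, another survival protein, had 0.53 on the bright one and -0.51 and -1.76 on 2 dim ones. The 2 lower genes were Vegfa, a growth factor for blood vessels (-0.17), and Hif1a, a transcription factor of the response to low oxygen (-0.15). Among the 7 genes of the list below the filter, 3 were higher and 4 lower. Sprr1a and A2m, both known from gp130 signalling in injured neurons or liver, were among the lower ones at -0.71 and -0.73.

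Markers of other cells moved beside this list, and their part in it was not tested. All 12 fibroblast markers were above the filter and 10 of them were higher, where 47.3% of all genes above it were higher. Their summed intensity was 53255 in neurons from co-culture and 46735 in neurons alone. Under quantile normalization and lowess 7 of the 12 were higher, where 52.6% and 51.5% of all genes were. Past 2-fold were Mgp, a matrix protein that inhibits calcification, with 1603 in neurons from co-culture and 412 in neurons alone (log2 ratio 1.96), and the proteoglycan Dcn, with 652 in neurons from co-culture and 306 in neurons alone (1.09). Over all 6368 genes above the filter, 0.942% reached 2-fold in either direction, and 20 genes did so as higher. Col1a1 had 10750 in neurons from co-culture and 9988 in neurons alone, Col1a2 had 9907 in neurons from co-culture and 9350 in neurons alone, and Vim had 8646 in neurons from co-culture and 8328 in neurons alone. Of 17 cardiac myocyte markers 12 were below the filter, and 3 were under the floor on both arrays. Of the 5 above the filter 3 were higher and 2 lower, where 47.3% of all genes above it were higher. Of the 5, 2 passed through the co-culture array alone. Of the 3 above the filter on both arrays 1 was higher (median -0.02), where 47.0% of all such genes were higher. The summed intensity of all 17 was 2418 in neurons from co-culture and 1967 in neurons alone, and Nppa, the study's own myocyte marker, had 201 in neurons from co-culture and 178 in neurons alone. The brightest cardiac marker, Tnnt2, a troponin of the heart, had 408 in neurons from co-culture and 293 in neurons alone (0.48). Nppb, a natriuretic peptide of the heart, had 309 in neurons from co-culture and 180 in neurons alone (0.78), and Pln, which regulates the calcium pump, had 279 in neurons from co-culture and 284 in neurons alone (-0.02). Myl2, a myosin light chain named after its value was seen, was below the filter, with 134 in neurons from co-culture and 44.8 in neurons alone (1.58). Macrophage markers were lower in 5 of 6 above the filter, where 47.3% of all genes above it were higher. Of the 6, 2 passed through the array of neurons alone only. Of the 4 above the filter on both arrays 1 was higher, where the share of all such genes was 47.0%. None of the 7 endothelial markers passed the filter on either array. The 3 brightest macrophage markers were Lyz2, with 484 in neurons from co-culture and 563 in neurons alone, Cd14, with 475 in neurons from co-culture and 420 in neurons alone, and Cd68, with 230.1 in neurons from co-culture and 275 in neurons alone.

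**Figure D4:**
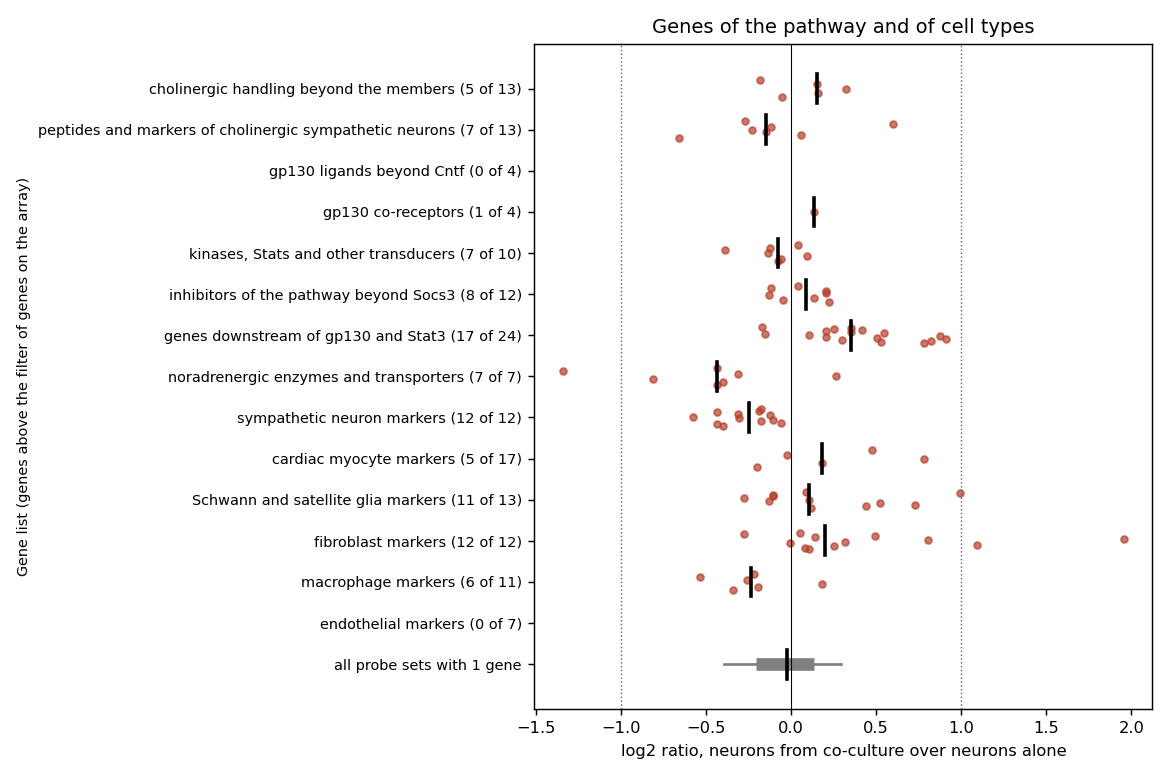
Log2 ratio (co-culture over alone) for each gene above the filter (points) in 14 lists, with the list's median as a black bar. The bottom row gives the median, the quartiles (thick bar) and the 10th to 90th percentiles (thin line) of all probe sets with 1 gene that passed the filter. The list downstream of gp130 and Stat3 has 15 of 17 points right of 0, and all 12 sympathetic neuron markers lie left of it.

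Genes that accompany the cholinergic phenotype were not higher as a list, and single genes went both ways. Of 13 peptides and markers of cholinergic sympathetic neurons on the array, 7 were above the filter, 2 higher and 5 lower (median -0.15). The share of all genes above the filter that were higher was 47.3%. Of the 7, 1 passed through the co-culture array alone. Of the 6 above the filter on both arrays, 1 was higher (median -0.19), where 47.0% of all such genes were higher. The brightest were Ret, a receptor for the GDNF family, with 1005 in neurons from co-culture and 1089 in neurons alone (-0.12), and its partner Gfra2, with 508 in neurons from co-culture and 564 in neurons alone (-0.15). The 3 Ret probe sets had log2 ratios of -0.12, -0.18 and -0.47. The peptides are named after their values were seen. Vip, vasoactive intestinal peptide, which cholinergic sympathetic neurons release with acetylcholine, had 379 in neurons from co-culture and 458 in neurons alone (-0.27). Sst, somatostatin, had 205 in neurons from co-culture and 135 in neurons alone (0.60). Tac1, the substance P precursor, was below the filter, with 104 in neurons from co-culture and 62.3 in neurons alone (0.74). Vip, Sst and Tac1 are all inducible by gp130 ligands in cultured sympathetic neurons, and their signals went both ways here. Of the other peptides on the list, Gal was above the filter, with 402 in neurons from co-culture and 635 in neurons alone (-0.66). Below the filter were Calca, at 0.54 on its brightest probe set, and Calcb, at -0.38. Adcyap1 was under the floor on both arrays.

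Other genes of choline and acetylcholine handling were near 1 where above the filter. Of 13 on the array, 5 were above the filter, 3 higher and 2 lower, with none at 2-fold and a median of 0.15. Of all genes above the filter 47.3% were higher and 0.942% reached 2-fold. Slc44a2 had 921 in neurons from co-culture and 1044 in neurons alone (-0.18). Slc44a1, a choline transporter of most cells, had 586 in neurons from co-culture and 527 in neurons alone (0.15), with -0.49 on another probe set. Bche, butyrylcholinesterase, the relative of Ache that also splits acetylcholine, is named after its value was seen. It was below the filter, with 37.1 in neurons from co-culture and 87.5 in neurons alone, a log2 ratio of -1.14. The noradrenergic list beside it had 6 of 7 genes lower, with a median of -0.43. Of the 7, 1 passed the filter through the array of neurons alone only. Of the 6 above the filter on both arrays 1 was higher, where 47.0% of all such genes were. Dbh, which makes noradrenaline from dopamine, had 1596 in neurons from co-culture and 2159 in neurons alone (-0.44). Slc6a2, the noradrenaline transporter, had 217 in neurons from co-culture and 552 in neurons alone (-1.34). Maoa, the higher gene of the list, named after its value was seen, had 1018.5 in neurons from co-culture and 848 in neurons alone (0.26). The Slc5a7 log2 ratio of -0.07 lay below that of Maoa and above those of the 6 lower genes on their brightest probe sets. Those 6 were set apart for being lower, so their place says little about Slc5a7, and no test of the difference was possible. Other probe sets of Slc18a2, Ddc and Gch1, of the same list, are named after their values were seen. That of Slc18a2, above the filter, was at -0.02 and a dim one of Ddc at 0.29, both above Slc5a7. A dim one of Gch1 was at -0.27, below Slc5a7.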

How the data were processed

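The 2 arrays held 1 sample each, 1 of neurons from co-culture and 1 of neurons alone. The authors deposited 1 linear intensity per probe set and array. The series' design text names dChip 1.3 for quantification and the submitters' processing notes name MAS5. Nothing in the sources used here says which made the values, or how background and scaling were handled. Detection calls were not used.

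No further scaling was applied, since the 2% trimmed means were 360.4 in neurons from co-culture and 367.4 in neurons alone. After the floor, log2 ratios were formed as co-culture over alone. Control probe sets (57) were left out. Of the others, 12783 had 1 symbol, 312 several and 2771 none. Each of 10411 genes was represented by its brightest probe set. The spread (SD) of a single probe set's ratio on the log2 scale came from 749 genes with more than 1 probe set past the filter, in 4 groups by signal (0.35 to 0.22, dimmest to brightest). It holds probe noise only and stands in for no replicate. The number of arrays limits the precision.

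Members and gene lists were chosen with earlier results of these data known. By rule the text names every member, up to 4 genes per list past 2-fold, the 2 brightest others of each pathway list and the 3 brightest of each marker list with Nppa. Further genes were picked after seeing their values, as the text says at each. The alternatives were 5 scalings, 3 treatments of low values, 3 filters and 2 choices of probe set. Leaving out genes of the downstream list was chosen after seeing the data. Promoter sequences are RefSeq's (GRCr8), matched by symbol for 8 of 8 genes. Python 3.11.15, numpy 2.4.6, pandas 2.3.3 and statsmodels 0.14.6 (lowess, span 0.3) were used, and the functions were tested on simulated data.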

Additional observations from a re-analysis of the deposited data

How the results depend on the processing

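No paired analysis was possible because each condition has 1 array. The count of member genes past 2-fold higher was 1, and 0 with a 40th percentile floor, where the log2 ratio of Slc18a3 is 0, or without probe sets for several transcripts, where Slc18a3 has none. Its log2 ratio was 2.19 and that of Chat 0.94 with no floor. Of the member genes 4 were above the filter, and 7 count with no filter. The median log2 ratio of the downstream list, 0.35, was 0.44 under median scaling, 0.26 under scaling to the spiked controls and 0.21 with the mean over probe sets. With no filter the medians of the choline handling list and of the cholinergic peptide and marker list were 0.00. The ligands, with none above the filter, had no median to compare. A 25th percentile filter put the inhibitors at -0.017. The choline handling list was at -0.056 with the mean over probe sets. The cause was not tested. Genes past 2-fold numbered 60, against 37 with a pseudocount in place of the floor, 170 with no filter or a 25th percentile filter, and 28 with the filter in both arrays. Probe sets past 2-fold were 28 higher and 68 lower (29.2% higher), against 36 and 53 after quantile normalization (40.4%), 34 and 52 under median scaling (39.5%), 35 and 53 after lowess (39.8%), 30 and 61 under trimmed mean scaling (33.0%) and 23 and 90 under scaling to the spiked controls (20.4%). Signal near background limits Chat, Slc18a3 and Cntf.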
